A study of Mus musculus with 6 samples.

Results

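The miR-130/miR-301 family was examined in small-RNA libraries of a cultured mouse epicardial cell line, the cells of the heart's outer layer, labelled MCEC. The members were the mature microRNAs named miR-130a, miR-130b, miR-301a or miR-301b, on either arm, which gave 8 of the 1028 microRNAs in the count table. The KO group had received a lentivirus with an sgRNA against Hdac3 for CRISPR/Cas9 knockout, and the EV group an empty-vector lentivirus, with 3 libraries each. All were grown in high-glucose DMEM with serum. The labels name the line only as epicardial and do not say whether the KO cells were a pool or 1 clone, nor whether a group's 3 libraries are separate cultures. The p-values therefore reflect variation among these libraries, which may be only technical. Hdac3 encodes a histone deacetylase of repressor complexes, and the question was whether the family changes when it is targeted. Small-RNA libraries do not hold the Hdac3 mRNA, so the knockout was not checked here.

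MicroRNAs are cut from a hairpin, first by Drosha and then by Dicer, and 1 strand of the resulting duplex is loaded into Argonaute, where the seed near its 5′ end pairs with target mRNAs. Hairpins of the miR-130/miR-301 family carry the shared seed on their 3p arm. In mouse and human, the family is known for acting in blood vessels, where it represses the nuclear receptor gene Pparg, and in remodelling of the extracellular matrix. The 5p arm is the opposite strand of the duplex and has another seed.

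RefSeq (GRCm38) held mature sequences for 7 of the 8 members, all but miR-301b-3p. They are shown because the family is defined by its seed, bases 2 to 8, in capitals. The 3p arms were these:
miR-130a-3p: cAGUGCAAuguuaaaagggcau
miR-130b-3p: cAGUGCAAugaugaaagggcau
miR-301a-3p: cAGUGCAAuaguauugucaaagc
The 5p arms, with their own seeds in capitals, were these:
miR-130a-5p: gCUCUUUUcacauugugcuacu
miR-130b-5p: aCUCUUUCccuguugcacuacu
miR-301a-5p: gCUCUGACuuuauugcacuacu
miR-301b-5p: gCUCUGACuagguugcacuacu
Counted from the 5′ end, miR-130a-3p and miR-130b-3p shared their first 10 bases and differed by U11A and A13G. Between miR-301a-3p and miR-130a-3p only the first 9 bases ran identically, and 10 of 22 aligned positions differed. Among the 5p arms, miR-301a-5p and miR-301b-5p had the same seed and differed at 3 positions, U10A, U11G and A12G. The 5p arms of miR-130b, miR-301a and miR-301b ended in the same 10 bases, while that of miR-130a shared only the last 5 with them. The sources used here do not say how reads matching more than 1 of these sequences were counted, so the split between miR-130a-3p and miR-130b-3p is uncertain. Outside the family, miR-126a-5p and miR-126b-3p had the same count in every library, so 1 read may be counted under 2 names. Whether this holds for family members was not tested.

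The hairpins lie at 3 places in the genome. Mir130a (chr2:84741115-84741178, minus strand) overlapped no annotated gene in GENCODE M21. Mir301, the hairpin of miR-301a (chr11:87113004-87113089, plus strand), lies in an intron of Ska2, a kinetochore protein gene on the same strand. Mir301b (chr16:17124400-17124496) and Mir130b (chr16:17124061-17124142) are separated by 257 bp, both in an intron of 2610318N02Rik on the minus strand. The hairpins of miR-130a and miR-130b are printed with their mature arms in capitals, since reads of these hairpins fell mainly on opposite arms:
Mir130a: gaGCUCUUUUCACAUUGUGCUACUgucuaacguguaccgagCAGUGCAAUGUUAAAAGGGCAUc
Mir130b: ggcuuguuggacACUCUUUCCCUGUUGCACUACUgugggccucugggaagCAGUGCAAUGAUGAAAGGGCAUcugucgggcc

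The libraries held 11824881 to 13412774 counts. Levels are given as CPM, reads per 1000000 after each total was multiplied by edgeR's TMM scaling factor, which was 0.919 to 1.23 and highest in EV 1. A single read was worth 0.0637 to 0.0892 CPM. KO 2 and EV 3 stood apart from the other 4 libraries, at one end of the first principal component (39.3% of the variance), and were highest in miR-451a, a microRNA of red blood cells, and in the neural miR-9-5p. Its CPM was 0.243 in KO 1, 62.7 in KO 2 and 0.573 in KO 3, against 0.892 in EV 1, 2.45 in EV 2 and 54.7 in EV 3. For miR-9-5p the CPM was 19.1 in KO 1, 57.1 in KO 2 and 15.2 in KO 3, against 11.3 in EV 1, 32.6 in EV 2 and 51.4 in EV 3. The other tested neural microRNA, miR-219a-5p, was lowest in KO 2, at 1.12 CPM, and highest in EV 3, at 2.50 CPM. The 7 blood-cell microRNAs together summed to 6.16 to 78.3 CPM in KO and to 8.92 to 68.4 CPM in EV. Of these, miR-486a-5p was also highest in KO 2 and EV 3, at 15.1 and 13.3 CPM. By contrast, miR-142a-5p and miR-150-5p were highest in EV 2. In KO 2 and EV 3, miR-144-3p, miR-142a-3p and miR-223-3p were at 0 CPM. edgeR called 0 of the 2 that could be tested, against 7.61% of all tested. Without KO 2 and EV 3, where 34 of 470 tested microRNAs were called lower in KO, miR-451a was among them. The part of the blood-cell and neural microRNAs in the family's values was not tested, and changes are also given without KO 2 and EV 3. No list used here holds a marker specific to epicardium. The mesenchymal miR-143-3p was abundant, at 78261 ± 3365 CPM in KO and 72341 ± 1120 CPM in EV (SD, n = 3 each). Of the 7 mesenchymal microRNAs, with a median log2 change of -0.04, edgeR called 0, against 7.61% of all tested. Without KO 2 and EV 3, where 54 of 470 tested microRNAs were called higher in KO, miR-145a-5p and miR-21a-5p of this list were among them. The epithelial miR-200b-3p was at 17.7 ± 0.898 CPM in KO and 30.7 ± 2.25 CPM in EV (SD, n = 3 each). Of 4 tested epithelial microRNAs, with a median of -0.74, edgeR called 2 lower in KO, against 2.61% of all tested. These were miR-200b-3p (log2 change -0.80, SE 0.13) and miR-200a-3p (-0.88, SE 0.15). Neither miR-9-5p nor the muscle miR-206-3p was called, with log2 changes of -0.05 (SE 0.57) and -0.35 (SE 0.13). The other tested muscle microRNA, miR-1a-3p, went the other way, at 1.07 (SE 0.30, edgeR adjusted p = 0.0657). It was scarce, at 2.05 CPM in KO and 0.992 CPM in EV. With all libraries miR-1a-3p was not called, but it was called higher without EV 3, and also without KO 2 and EV 3 together.

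The family was scarce in these cells and no member passed the test between KO and EV. Its 8 members together had 639, 682 and 552 reads in KO 1, KO 2 and KO 3, and 892, 694 and 613 reads in EV 1, EV 2 and EV 3. On the CPM scale the sum was 50.5 ± 4.74 in KO and 56.1 ± 1.18 in EV (SD, n = 3 each). As a share of all counts it was at most 0.00536% in KO and at most 0.00697% in EV. Of the 8 members, 6 passed the filter on low counts and 0 were called by edgeR's quasi-likelihood test (two-sided, Benjamini-Hochberg adjusted p under 0.05), and 0 had an unadjusted p under 0.05. In the same fit 35 of 460 microRNAs were called, 7.61% of those tested, with 5% higher and 2.61% lower in KO, and 23% had an unadjusted p under 0.05. This balance of directions depended on the scaling, with 1 called higher and 4 lower under library size alone, and 18 higher and 25 lower when miR-21a-5p was left out of the library size. DESeq2 and limma-voom also called 0 members. The KO and EV values of each tested member overlapped. Over all tested microRNAs they did not overlap for 29.1%, and KO lay wholly below EV for 13.9%. Only 6 members from 3 hairpins were tested, so counts of 0 do not set the family apart from these shares.

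**Figure D1:**
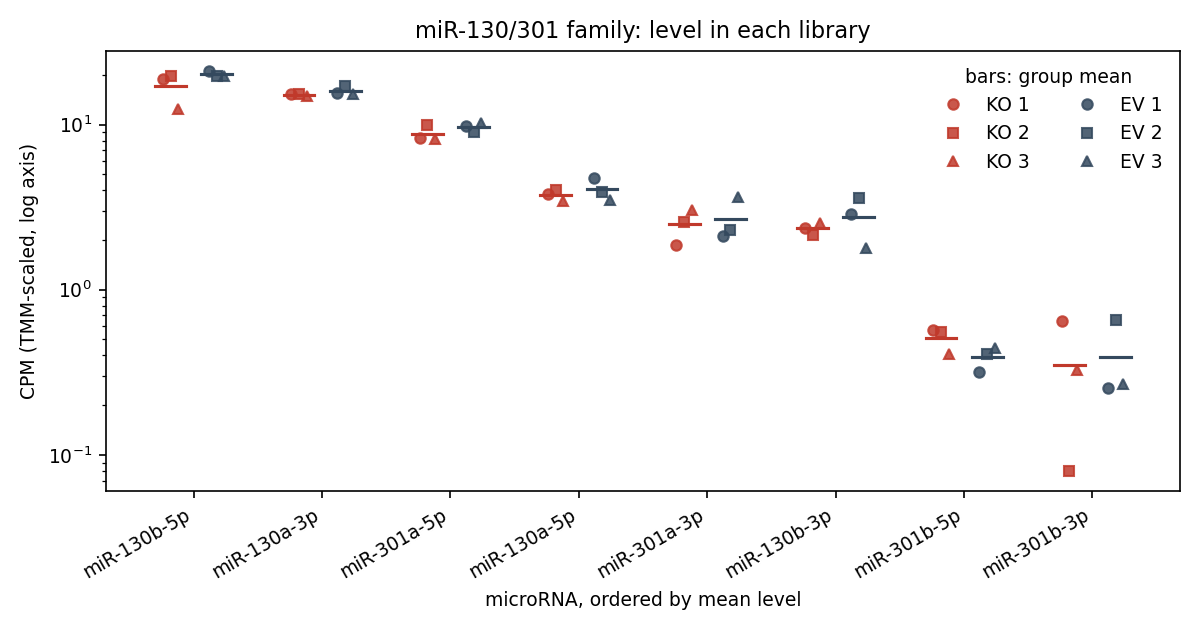
Level of each of the 8 family members in each library, in TMM-scaled CPM on a log axis, with KO libraries in red to the left of EV libraries in dark grey and bars at the group means. The members span from below 1 CPM (both arms of miR-301b) to about 20 CPM (miR-130b-5p), and the groups overlap for all 8.

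Ordered by level, miR-130b-5p came first, followed by miR-130a-3p, miR-301a-5p, miR-130a-5p, miR-301a-3p, miR-130b-3p, miR-301b-5p and miR-301b-3p. The mature sequences shown are 22 or 23 bases long, so length hardly enters this order, but ligation favours some small RNAs over others, which limits comparisons between members. miR-130b-5p exceeded miR-130a-3p in 5 of 6 libraries, with overlapping ranges in KO. miR-301a-3p and miR-130b-3p did not differ beyond their spread, each being the higher in 3 libraries, and neither did the arms of miR-301b. miR-130a-5p and miR-301a-3p overlapped in EV and not in KO. The other neighbours in the order were apart in both groups.

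Among the arms with the family seed, miR-130a-3p, which in human endothelial cells is known to repress antiangiogenic homeobox genes, was the most abundant. It had 189, 192 and 181 reads in KO 1, KO 2 and KO 3, and 244, 209 and 171 reads in EV 1, EV 2 and EV 3. After scaling these were 15.3, 15.3 and 14.8 CPM in KO, and 15.5, 17.1 and 15.3 CPM in EV. The values lay close together in both groups, the highest being EV 2. The means were 15.2 ± 0.287 CPM in KO and 15.95 ± 0.968 CPM in EV (SD, n = 3 each), a log2 fold change of -0.07 (SE 0.13, 95% interval -0.37 to 0.22, edgeR adjusted p = 0.771). The interval corresponds to a KO over EV ratio of 0.776 to 1.16. This was the most precise estimate in the family. With miR-130a-3p and miR-130b-3p summed, because their reads may be shared, the log2 change was -0.10 (SE 0.14, edgeR adjusted p = 0.690). Any read counted under both names would enter this sum more than once.

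miR-130b-3p, with the same seed, had 29, 27 and 31 reads in KO 1, KO 2 and KO 3, and 45, 44 and 20 reads in EV 1, EV 2 and EV 3. That was 2.35, 2.15 and 2.54 CPM in KO, and 2.87, 3.59 and 1.78 CPM in EV. The KO values fell between the highest and the lowest EV values. The log2 change was -0.24 (SE 0.26, 95% interval -0.83 to 0.35, edgeR adjusted p = 0.617). Without EV 3, the lowest EV library, the change was -0.45 (SE 0.22, edgeR adjusted p = 0.220), and without EV 2 it was -0.04 (SE 0.28), so the size of this estimate depended on single EV libraries while no setting called it.

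miR-301a-3p, produced from the Ska2 intron, had 23, 32 and 37 reads in KO 1, KO 2 and KO 3, and 33, 28 and 41 reads in EV 1, EV 2 and EV 3. On the CPM scale it was at 1.86, 2.55 and 3.03 in KO, and at 2.10, 2.29 and 3.66 in EV. Its group means were 2.48 ± 0.586 CPM in KO and 2.68 ± 0.851 CPM in EV (SD, n = 3 each), which differed by less than either spread. The log2 change was -0.09 (SE 0.28, 95% interval -0.72 to 0.53, edgeR adjusted p = 0.873), and it was above 0, at 0.17 (SE 0.34), without KO 2 and EV 3. Leaving out KO 1 or EV 3 alone also turned its sign, to 0.08 (SE 0.30) and 0.18 (SE 0.27). miR-301a-3p thus had the least certain direction of the tested 3p arms.

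miR-301b-3p had 8, 1 and 4 reads in KO 1, KO 2 and KO 3, and 4, 8 and 3 reads in EV 1, EV 2 and EV 3, too few to pass the filter. Pooled over each group it stood at 0.351 CPM in KO (95% exact Poisson interval 0.187 to 0.600) and at 0.383 CPM in EV (0.214 to 0.632), where the intervals cover counting error only. A difference was not detectable at this depth. Summed over the 4 members, the 3p arms gave 20.3 ± 0.334 CPM in KO and 21.8 ± 1.57 CPM in EV (SD, n = 3 each). miR-130a-3p supplied 71.5% to 76.2% of these reads in each library, so the summed seed level largely follows that 1 microRNA. No p-value is given for sums over members chosen by name.

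No unequal change was detected among the 3p arms with this seed. In a limma diffSplice test fitted over 45 seed sets, of which 3 were called (6.67%), the set of miR-130a-3p, miR-130b-3p and miR-301a-3p had an adjusted p = 0.977. Each member was set against the mean of the others, and miR-130b-3p lay farthest out, with a difference of -0.12 in log2 change (SE 0.29, 95% interval -0.74 to 0.49). The intervals reach differences of more than 0.4 in either direction for each of the 3, so unequal changes of that size are within the error. RefSeq lists 4 further mouse microRNAs with this seed, miR-130c, miR-721, miR-6341 and miR-6389, which have no row in the count table.

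The 5p arm of miR-130b was the most abundant member and had the largest spread among the better covered ones. It had 634 reads over the 3 KO libraries and 793 over the 3 EV libraries. In KO 1, KO 2 and KO 3 it reached 19.0, 19.8 and 12.4 CPM, and in EV 1, EV 2 and EV 3 it reached 21.1, 19.7 and 19.6 CPM. Only KO 3 was clearly below the other 5 libraries, which lay within 19.0 to 21.1 CPM. The means were 17.1 ± 4.02 CPM in KO and 20.2 ± 0.864 CPM in EV (SD, n = 3 each), and the log2 change was -0.24 (SE 0.18, 95% interval -0.65 to 0.17, edgeR adjusted p = 0.465). Without KO 3 it was -0.06 (SE 0.16, edgeR adjusted p = 0.869), so the value rested on that library. Without KO 2 and EV 3 it was -0.37 (SE 0.19, edgeR adjusted p = 0.186), with an unadjusted p = 0.0514.

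miR-301a-5p had 102, 125 and 100 reads in KO 1, KO 2 and KO 3, and 154, 111 and 114 reads in EV 1, EV 2 and EV 3. After scaling it was at 8.27, 9.97 and 8.19 CPM in KO, and at 9.81, 9.06 and 10.2 CPM in EV. KO 2 was higher than 2 of the EV libraries, and the log2 change was -0.14 (SE 0.15, 95% interval -0.47 to 0.19, edgeR adjusted p = 0.611). miR-130a-5p had 47, 50 and 42 reads in KO, and 75, 48 and 39 reads in EV. After scaling, the KO libraries had 3.81, 3.99 and 3.44 CPM and the EV libraries 4.78, 3.92 and 3.48 CPM. It averaged 3.75 ± 0.280 CPM in KO and 4.06 ± 0.660 CPM in EV (SD, n = 3 each), a log2 change of -0.13 (SE 0.17, 95% interval -0.51 to 0.26, edgeR adjusted p = 0.679). Its highest value was in EV 1, and without that library the change was 0.02 (SE 0.18).

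miR-301b-5p, with 7, 7 and 5 reads in KO and 5, 5 and 5 reads in EV, also failed the filter. Fitted without a filter, the 2 arms of miR-301b had log2 changes of 0.38 (SE 0.69) for the 5p arm and -0.17 (SE 0.77) for the 3p arm, neither called by edgeR. The 5p arms summed to 30.1 ± 5.07 CPM in KO and 34.3 ± 1.57 CPM in EV (SD, n = 3 each).

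The spread within groups was below counting error for 3 of the 6 tested members. For miR-130a-3p the coefficient of variation within groups was 4.59%, against 7.15% from counting alone. For miR-301a-5p these were 8.83% and 9.29%, and for miR-130a-5p 12.99% and 14.4%. The spread of miR-130b-5p, at 15.6%, was larger than its counting error of 6.61%, with KO 3 the low value. For miR-301a-3p the spread was 28.3% and the counting error 17.8%, and for miR-130b-3p the spread, 25.8%, was also the larger. Of the members not tested, miR-301b-5p varied by less than its counting error and miR-301b-3p by more.

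**Figure D2:**
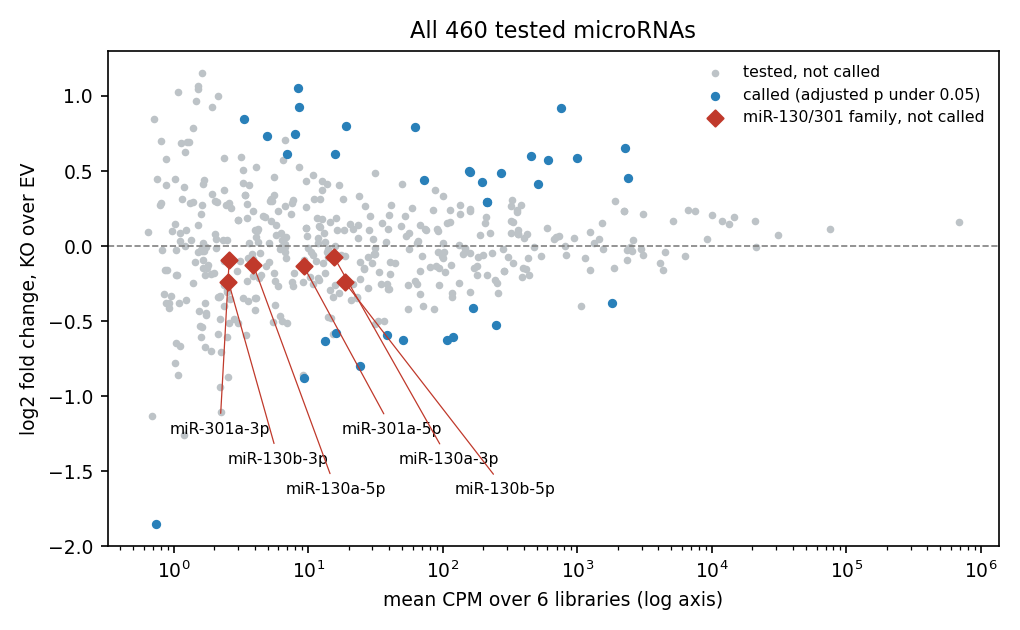
Log2 fold change of KO over EV against mean CPM (log axis) for the 460 tested microRNAs, with called ones in blue and the 6 tested family members as red diamonds. The members lie between -0.24 and -0.07, inside the cloud of microRNAs that were not called.

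In the TMM fit each of the 6 tested members had a log2 change below 0, with a median of -0.13. Of all tested microRNAs 51.7% lay below 0, and their median was -0.01. The 6 come from 3 hairpins and share libraries, so their common sign is not 6 separate observations. Called microRNAs had absolute log2 changes of at least 0.29, and the 95% intervals of all 6 members reach below -0.29. A fall of that size is thus within the error for each of them.

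The scaling shifted these values together. With library size alone, without TMM factors, the 6 changes were between -0.41 and -0.23, while the median of all microRNAs moved to -0.16. With library sizes that leave out miR-21a-5p, the dominant microRNA of these cells, they were between -0.34 and -0.17, with a median of all of -0.11. Each of the 6 lay below the median of all under all 3 scalings, and none was called under any of them.

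**Figure D3:**
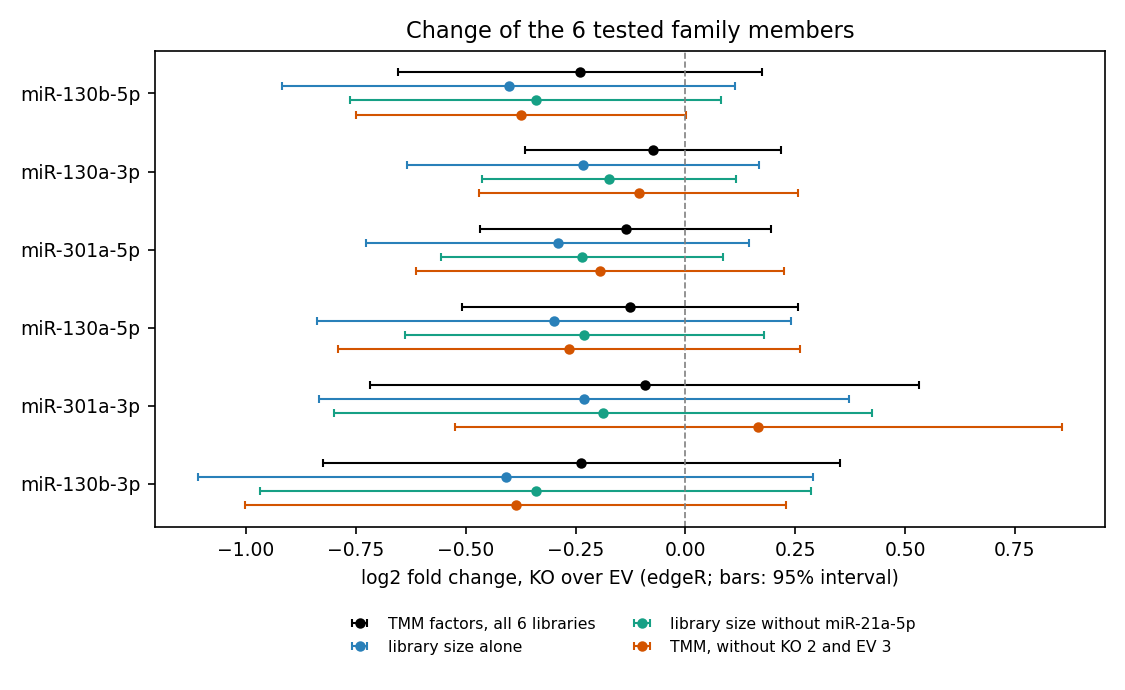
Log2 fold change of KO over EV of the 6 tested members with 95% intervals from edgeR, under 3 scalings and without KO 2 and EV 3. Every interval includes 0, and miR-301a-3p changes sign without KO 2 and EV 3, at 0.17.

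The family's hairpins differed in which arm gave more reads. The 5p arm supplied most reads of miR-130b and miR-301a, and the 3p arm most reads of miR-130a. For miR-130b the 5p share was 89.0%, 90.2% and 83.1% in KO 1, KO 2 and KO 3, and 88.1%, 84.6% and 91.7% in EV 1, EV 2 and EV 3. In total 1427 reads came from its 5p arm and 196 from its 3p arm, a ratio of 7.28. Even the lowest of the 6 values, in KO 3, had an exact 95% binomial interval of 76.8% to 88.2%, above equal use of the arms. This interval covers counting error only.

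For miR-301a the 5p share averaged 78.1% ± 4.51 in KO and 78.6% ± 4.54 in EV (SD, n = 3 each), with 706 reads of the 5p arm and 194 of the 3p arm over all libraries. For miR-130a it averaged 19.8% ± 0.919 in KO and 20.3% ± 2.82 in EV (SD, n = 3 each), and the 3p arm had 3.94 times the reads of the 5p arm over all libraries. The hairpins of miR-130a and miR-130b thus used opposite arms in all 6 libraries, with 3p arms that differ at 2 positions. These shares rest on the uncertain split of reads between miR-130a-3p and miR-130b-3p. For miR-301b, with 34 reads of the 5p arm and 28 of the 3p arm, the share could not be told from equal use, with intervals as wide as 21.2% to 86.3% in a single library. The shares also compare different molecules within a library, and ligation bias between the arms was not tested.

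A majority of 5p reads was itself common in the table. Of 208 hairpin names with both arms listed and at least 100 reads, 54.8% had more 5p than 3p reads, and 75 had a higher 5p share than miR-130b. What separates miR-130b and miR-301a from miR-130a is that their more abundant arm is not the one with the family seed.

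**Figure D4:**
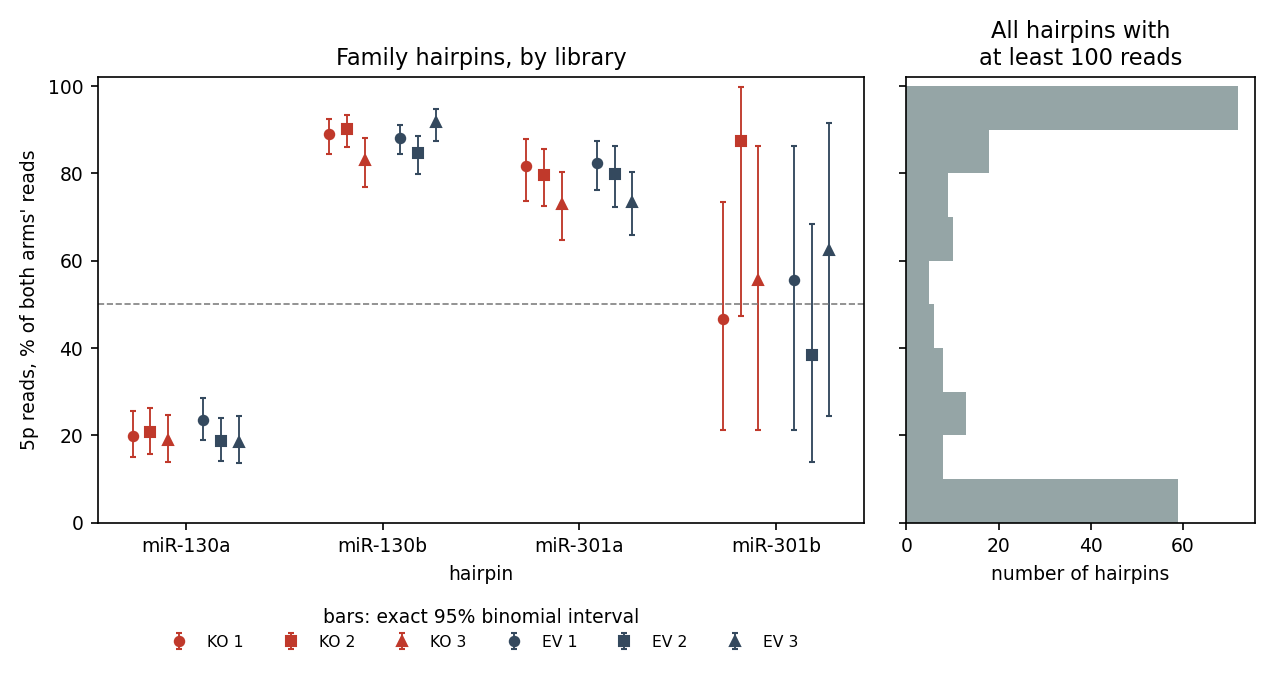
Left, share of 5p reads among the reads of both arms for each family hairpin and library, KO in red and EV in dark grey. Bars are exact 95% binomial intervals, which cover counting error only. Right, the same share, pooled over libraries, for 208 hairpins with at least 100 reads. miR-130b and miR-301a lie near 88% and 78%, miR-130a near 20%, with KO and EV overlapping for each.

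No unequal change of the arms was detected between KO and EV. Over 133 hairpins with both arms tested, diffSplice called 0, which is 0% of them. The 3p minus 5p difference in log2 change was 0.05 for miR-130a (SE 0.21, 95% interval -0.40 to 0.50), 0.08 for miR-130b (SE 0.36, -0.69 to 0.84) and 0.08 for miR-301a (SE 0.31, -0.57 to 0.74), each with an adjusted p = 0.998. These intervals are wide, and in each hairpin 1 arm had few reads.

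For the genomic neighbours miR-301b and miR-130b, the filter left only the 2 arms of miR-130b. In the fit over 78 clusters, of which 1 was called (1.28%), this cluster therefore gave again the arm difference of miR-130b, 0.08 (SE 0.36, diffSplice adjusted p = 0.958). Without a filter, where 1 of 184 clusters was called (0.543%), miR-301b-5p differed from the arms of miR-130b by 0.63 in log2 change (SE 0.66, 95% interval -0.67 to 1.93, diffSplice adjusted p = 0.982). That interval covers both a fall and a more than 2-fold rise relative to miR-130b. miR-301b-3p, which had no RefSeq mature sequence, entered neither cluster fit. Its unfiltered log2 change was -0.17 (SE 0.77), opposite in sign to that of miR-301b-5p.

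The 3 microRNAs whose log2 CPM ran most like that of miR-130b-5p, the most abundant member, were miR-199a-3p, miR-1953 and miR-679-3p, with Pearson's r of 0.91, 0.91 and 0.91 over 6 libraries that share their depth and scaling. They were picked as the highest of 454, so the values are a description.

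The 5 microRNAs whose seeds overlap the family's when shifted by 1 base included more abundant ones, although miR-19a-3p, at 12.03 CPM in KO and 11.64 CPM in EV, was below miR-130a-3p. The most abundant of each seed are shown with their own seeds in capitals, each of which shares 6 bases in a row with AGUGCAA:
miR-19b-3p: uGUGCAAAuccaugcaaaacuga
miR-148a-3p: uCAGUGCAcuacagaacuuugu
The miR-19 pair, from the miR-17-92 type of cluster, summed to 158 ± 19.7 CPM in KO and 133 ± 31.9 CPM in EV (SD, n = 3 each). The miR-148a, miR-148b and miR-152 3p arms together took 3.08% to 3.24% of all counts in KO and 2.91% to 3.54% in EV, against at most 0.00198% in KO and 0.00255% in EV for the 3p arms of the miR-130/miR-301 family. Of these 5 overlapping microRNAs 0 were called by edgeR, against 7.61% of all tested. For miR-148a-3p, which led them in level, the log2 change was 0.08 (SE 0.10). The median of the 5 was 0.08.

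Other microRNAs known from fibrosis and from blood vessels were called higher in KO, mostly not under library size alone, and the difference between them and the miR-130/miR-301 family was not tested. Both lists were chosen with earlier results of these data known, so their counts beside the share of all tested are only a description. In a list of fibrosis microRNAs 3 of 16 tested were higher in KO, 0 were lower and 13 were not called (edgeR), against 5% higher among all tested, with a median log2 change of 0.22 against -0.01 for all. The most abundant of them, miR-21a-5p, which acts in fibroblast activation, was at 0.16 (SE 0.18) and not called. Those called were miR-34a-5p, induced by p53, at 0.79 (SE 0.10), miR-101a-3p, known in human cells to repress EZH2, at 0.57 (SE 0.08) and miR-30c-5p, known in rat heart cells to repress Ccn2, at 0.41 (SE 0.10). With library size alone, where 5 of 460 tested microRNAs were called, 0 of the list were called and the median was 0.06. Without KO 2 and EV 3, where 54 of 470 tested microRNAs were called higher, 8 of the list were higher. miR-30c-5p was not called when any library other than EV 3 was left out.

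In a list of vascular microRNAs 3 of 19 tested were higher in KO, 0 lower and 16 not called (edgeR), against 5% higher among all tested, with a median of 0.17. This list was likewise chosen with earlier results known. miR-143-3p, the smooth-muscle microRNA that was the most abundant of the list, was at 0.11 (SE 0.10) and not called. The called ones were miR-322-5p at 0.92 (SE 0.07), miR-503-5p at 0.60 (SE 0.07) and miR-23a-3p at 0.49 (SE 0.07), and the first 2 of these share a cluster. With library size alone, where 5 of 460 tested microRNAs were called, only miR-322-5p of the list was called. Without KO 2 and EV 3, where 54 of 470 tested microRNAs were called higher, 7 of the list were higher. The endothelial miR-126a-3p stood at 31.8 ± 0.112 CPM in KO and 35.8 ± 3.10 CPM in EV (SD, n = 3 each) and was not called, with a log2 change of -0.17 (SE 0.12), and the other endothelial microRNA, miR-126a-5p, was at 0.17 (SE 0.18) and not called either.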

How the data were processed

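Small RNA was ligated to adaptors, amplified and size-selected on a gel, per the labels' protocols, with no molecular identifiers mentioned. The authors deposited whole-number read counts per mature microRNA and TPM values, which equal the counts scaled to 1000000 to within 3.49e-10 and were not tested. The submitters' processing notes name Bowtie, mm10 and DESeq 1.8.3. The authors' deposited results for KO against EV (group mean signal, log2 fold change and p-values) cover 78 microRNAs, 0 of them family members.

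Counts were tested with edgeR 4.0.16 in R 4.3.3 (TMM, filterByExpr with minimum count 10 and minimum total 15, quasi-likelihood F test, Benjamini-Hochberg at 0.05 over all 460 tested). Differences within hairpins, seed sets and clusters (gaps of at most 10000 bp) used diffSplice (limma 3.58.1) on voom values. DESeq2 1.42.0, limma-voom, other scalings and filters, a replicate block, summed near-identical members (at most 2 differences) and omitted libraries were alternatives, and leaving out KO 2 with EV 3 and the unfiltered cluster fit were added later. The scripts were tested on simulated data. All library pairs within groups differed beyond counting error (lowest chi-square per degree of freedom 17.3). Named are all members, the most abundant tested microRNA and the 2 called ones with the smallest adjusted p of each list, and the 3 most like the top member. miR-30c-5p, miR-23a-3p, miR-19a-3p, miR-19b-3p, miR-126a-5p, miR-1a-3p, miR-219a-5p and miR-145a-5p were named after their values were seen. Members and lists were chosen with earlier results of these data known.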

Additional observations from a re-analysis of the deposited data

How the results depend on the processing

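No family member was called under any setting tried, omission of each library included, and in each 0 members had an unadjusted p under 0.05. The count over all microRNAs, 35, was 5 with library size alone (1 higher, 4 lower; 18 higher and 25 lower without miR-21a-5p in the library size), 56 without the filter, 88 without KO 2 and EV 3, and 15 to 59 with 1 library left out. The sign of miR-301a-3p was reversed without KO 2 and EV 3, at 0.17. With 1 library left out its log2 change ran from -0.26 to 0.18, and that of miR-130a-5p from -0.22 to 0.020, while the other 4 tested members stayed below 0. The 3p minus 5p difference ran from -0.11 to 0.12 for miR-130a, from -0.19 to 0.28 for miR-130b (also as a cluster) and from -0.12 to 0.27 for miR-301a. Within the seed set the differences ran from -0.054 to 0.17 for miR-130a-3p, -0.38 to 0.045 for miR-130b-3p and -0.13 to 0.33 for miR-301a-3p. None of these was called, and the cause of the reversals was not tested. Same-numbered libraries did not consistently deviate together, with correlations of 0.34 for number 1, 0.04 for number 2 and -0.18 for number 3. The replicate block gave 34 calls, 0 of them members, with -0.26 for miR-130b-5p. Not every library correlated best with its own number. DESeq2 gave no adjusted p for miR-130a-5p, miR-130b-3p and miR-301a-3p. With at least 10 CPM in 3 libraries only miR-130a-3p and miR-130b-5p were tested, so no difference within the family could be fitted. Depth limits the scarce members: miR-130b-3p had 20 to 45 reads per library, and both arms of miR-301b had at most 8.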
